A study of Homo sapiens with 8 samples.

Results

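The cilia and flagella genes described here were the protein-coding genes on human autosomes whose RefSeq symbols begin with CFAP (cilia and flagella associated protein) or DNAH (dynein axonemal heavy chain), or with IFT (intraflagellar transport) followed by a digit. There were 81 such genes among 19126 autosomal protein-coding genes: 50 CFAP, 13 DNAH and 18 IFT genes, on 21 chromosomes, with CFAP20, the gene knocked out in the study, among them. The rule that chose them used their names and no measured value. Each was measured over its gene body, or over a 50 kb window centred on it where the body was shorter, which was the case for 37 members.

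The study compared CFAP20-KO with WT cells of RPE-1 hTERT, a line of human retinal pigment epithelial cells immortalised with telomerase, by single-cell EdU sequencing (scEdU-seq). EdU is a thymidine analogue that is built into DNA as it is copied; cells of both genotypes received 10 µM EdU for 15 min, were fixed in ethanol and sorted into the wells of 8 plates, and the labelled DNA of each cell was sequenced. Every plate held CFAP20-KO and WT cells, and the genotype of each cell came from the deposited files. The sources used here do not give the edit in CFAP20, the number of KO clones, or whether the plates were separate cultures, so each p-value below measures the spread between plates, which may be technical.

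A cilium is built on a ring of doublet microtubules. Dynein heavy chains (the DNAH proteins) are the motors that bend motile cilia and sperm flagella, many CFAP proteins lie inside or between the doublets or hold the dyneins, spokes and central pair in place, and the IFT-A and IFT-B complexes carry cargo along the doublets in motile and primary cilia alike. CFAP20 is a protein of the inner junction, where both tubules of a doublet meet. Axonemal dyneins belong to motile cilia, while RPE-1 cells are known for the immotile primary cilium they grow when they stop dividing. In dividing cells, gene-rich and transcribed DNA is usually copied early in S phase and gene-poor DNA late.

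The files held 26148975 fragments, 1746074 to 4181841 per plate, and each fragment was taken as 1 labelled molecule. Cells with at least 1000 autosomal molecules were used, 1140 CFAP20-KO and 1290 WT cells, which carried 9249981 and 14446367 autosomal molecules. All 378 well barcodes recur from plate to plate, so a cell was identified by its plate and barcode together. Cells were ranked along S phase from 0 (early) to 1 (late) on the leading axis of variation in labelling over 500 kb bins, and the timing of a gene is the mean rank of the cells that labelled it, weighted by their molecules. The 16 libraries (2 genotypes on 8 plates) held 751662 to 2478540 molecules. The files hold labelled DNA, so neither the expression of any cilium gene nor the loss of CFAP20 protein could be checked in them.

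The members drew 78446 molecules together, with 133 (CFAP157) to 5856 (CFAP299) per gene and a median of 464. Gene bodies ranged in length over 2.15 to 642 kb, with a median of 58.2 kb against 24.5 kb over all genes. CFAP144 and CFAP57 shared 2.35 kb of their windows, and the windows of CFAP298 and the read-through gene CFAP298-TCP10L shared 32.1 kb, so these pairs are not independent. Timing could be given for 78 members with at least 10 molecules on every plate; IFT25, CFAP65 and CFAP157 had fewer. The KO and WT timing of a gene could be compared for the 45 members with at least 10 molecules in every library.

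RefSeq promoter sequences of GRCh38.p14, from 250 bases before to 50 bases after the start of each gene, were at hand for 73 members. Those of CFAP20, of IFT122, the earliest member, and of CFAP90, the latest, are shown because they span the range of timing below; capitals mark each CG, the dinucleotide that clusters in the promoters of broadly expressed genes and reads the same on both strands. They lie at chr16:58129332-58129631 on the minus strand (CFAP20), chr3:129439974-129440273 on the plus strand (IFT122) and chr5:7851084-7851383 on the minus strand (CFAP90).
CFAP20: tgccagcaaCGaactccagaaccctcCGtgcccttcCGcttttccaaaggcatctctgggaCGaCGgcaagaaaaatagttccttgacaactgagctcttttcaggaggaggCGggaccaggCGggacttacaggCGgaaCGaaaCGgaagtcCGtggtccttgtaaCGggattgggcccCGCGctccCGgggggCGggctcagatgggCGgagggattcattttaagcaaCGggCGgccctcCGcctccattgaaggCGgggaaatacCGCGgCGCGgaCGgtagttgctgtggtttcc
IFT122: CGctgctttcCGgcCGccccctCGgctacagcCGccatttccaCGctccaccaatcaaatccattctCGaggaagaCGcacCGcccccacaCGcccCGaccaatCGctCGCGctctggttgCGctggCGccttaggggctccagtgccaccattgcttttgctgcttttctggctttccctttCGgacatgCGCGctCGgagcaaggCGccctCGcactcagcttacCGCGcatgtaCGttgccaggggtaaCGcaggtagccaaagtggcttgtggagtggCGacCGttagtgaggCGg
CFAP90: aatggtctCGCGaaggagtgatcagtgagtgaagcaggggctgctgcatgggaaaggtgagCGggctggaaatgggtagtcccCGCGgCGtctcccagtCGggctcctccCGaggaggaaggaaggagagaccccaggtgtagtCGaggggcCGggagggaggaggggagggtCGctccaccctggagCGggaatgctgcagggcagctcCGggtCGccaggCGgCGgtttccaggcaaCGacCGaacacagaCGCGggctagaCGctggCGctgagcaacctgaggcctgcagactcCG
They hold 26, 29 and 23 CG, in the order CFAP20, IFT122, CFAP90, and at least as many CG were found in 41.4%, 33.3% and 49.3% of all promoters of this length. The earliest and the latest member thus had similar CG content. Over the 71 timed members with a promoter, the rank correlation (Spearman) of CG count with timing was -0.0166, against -0.187 over 12867 genes; these are descriptions across genes, which are not independent replicates.

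CFAP20 itself (gene body chr16:58113592-58129381, 15.8 kb, GRCh38) was an early gene, measured in the 50 kb around it. Its timing on the 8 plates was 0.115 at the lowest, 0.214 at the median and 0.333 at the highest, with a mean of 0.210 ± 0.0698 (SD, n = 8). It was earlier than the median gene of the plate on 7 of 8 plates, by 0.0344 on average (adjusted p = 0.140, limma with Benjamini-Hochberg adjustment over all windows), which did not pass the threshold of 0.05. In 3 of the 16 alternative settings that timed CFAP20 it did pass, with differences of -0.0577 to -0.0382 (adjusted p up to 0.0440, limma). Whether it is called thus depends on the setting. In its window 80.6% of the molecules came from the tertile of cells earliest in S phase and 8.96% from the latest tertile.

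CFAP20 was labelled in both genotypes. The window drew 113 molecules from 54 CFAP20-KO cells and 222 molecules from 111 WT cells. Levels are given as CPM (molecules of the window per 1000000 autosomal molecules of the library). KO libraries had a CPM of 3.01 at the lowest, 10.4 at the median and 28.5 at the highest, against 5.35, 15.7 and 22.7 in WT libraries. The genotypes overlapped over most of their range. The log2 ratio of KO over WT was -0.44 ± 0.89 over plates (SD, n = 8), below 0 on 5 of 8 plates (exact two-sided sign-flip permutation, p = 0.195, where the smallest possible p is 0.00781). The fit over all windows gave a log2 ratio of -0.56 ± 0.34 (SE; adjusted p = 0.564, limma voom). Timing of CFAP20 was 0.113, 0.235 and 0.429 (lowest, median, highest) in KO libraries, against 0.115, 0.204 and 0.267 in WT libraries. The difference was 0.0440 ± 0.0875 (SD, n = 8; exact sign-flip permutation p = 0.164) and below 0 on 2 of 8 plates. It was not adjusted for the median timing of each library, which averaged 0.352 in KO and 0.323 in WT libraries. It is therefore not on the scale of the centred differences given below for other genes. One KO library held 4 molecules of the window, so CFAP20 did not enter the fit of timing differences over all genes, and differences of the size seen could not be resolved at this depth.

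Among windows with enough molecules to be timed, the cilia and flagella genes as a group were copied slightly earlier than genes at large. Their median timing on a plate was 0.229 ± 0.0392, against 0.244 ± 0.0378 over all 16105 windows (SD, n = 8), and the difference of -0.0153 ± 0.0111 was below 0 on 8 of 8 plates, from -0.0360 to -0.000161; with at least 300 molecules per cell it was below 0 on 6 of 8 plates. This difference is close to 0 on 1 plate and is given without a test, since it is one value over a list. The minimum of molecules kept 78 of 81 members but 16105 of 19126 genes, so it left out other genes more often. Windows with fewer molecules per kb tended to be earlier (rank correlation with timing 0.684 over all genes), and the part of this minimum in the difference was not tested. Against the median gene of their plate 28 of 78 members were called earlier and 21 later at an adjusted p under 0.05 (limma), where 28.5% of all windows were called earlier and 34.3% later. Called either way were 49 of the 78, or 62.8%, the same share as over all windows (62.8%). Members earlier than 0.2 made up 37.2% of the timed members (29 of 78) against 29.1% of all windows, and members later than 0.5 made up 8.97% (7 of 78) against 17.6%.

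**Figure D1:**
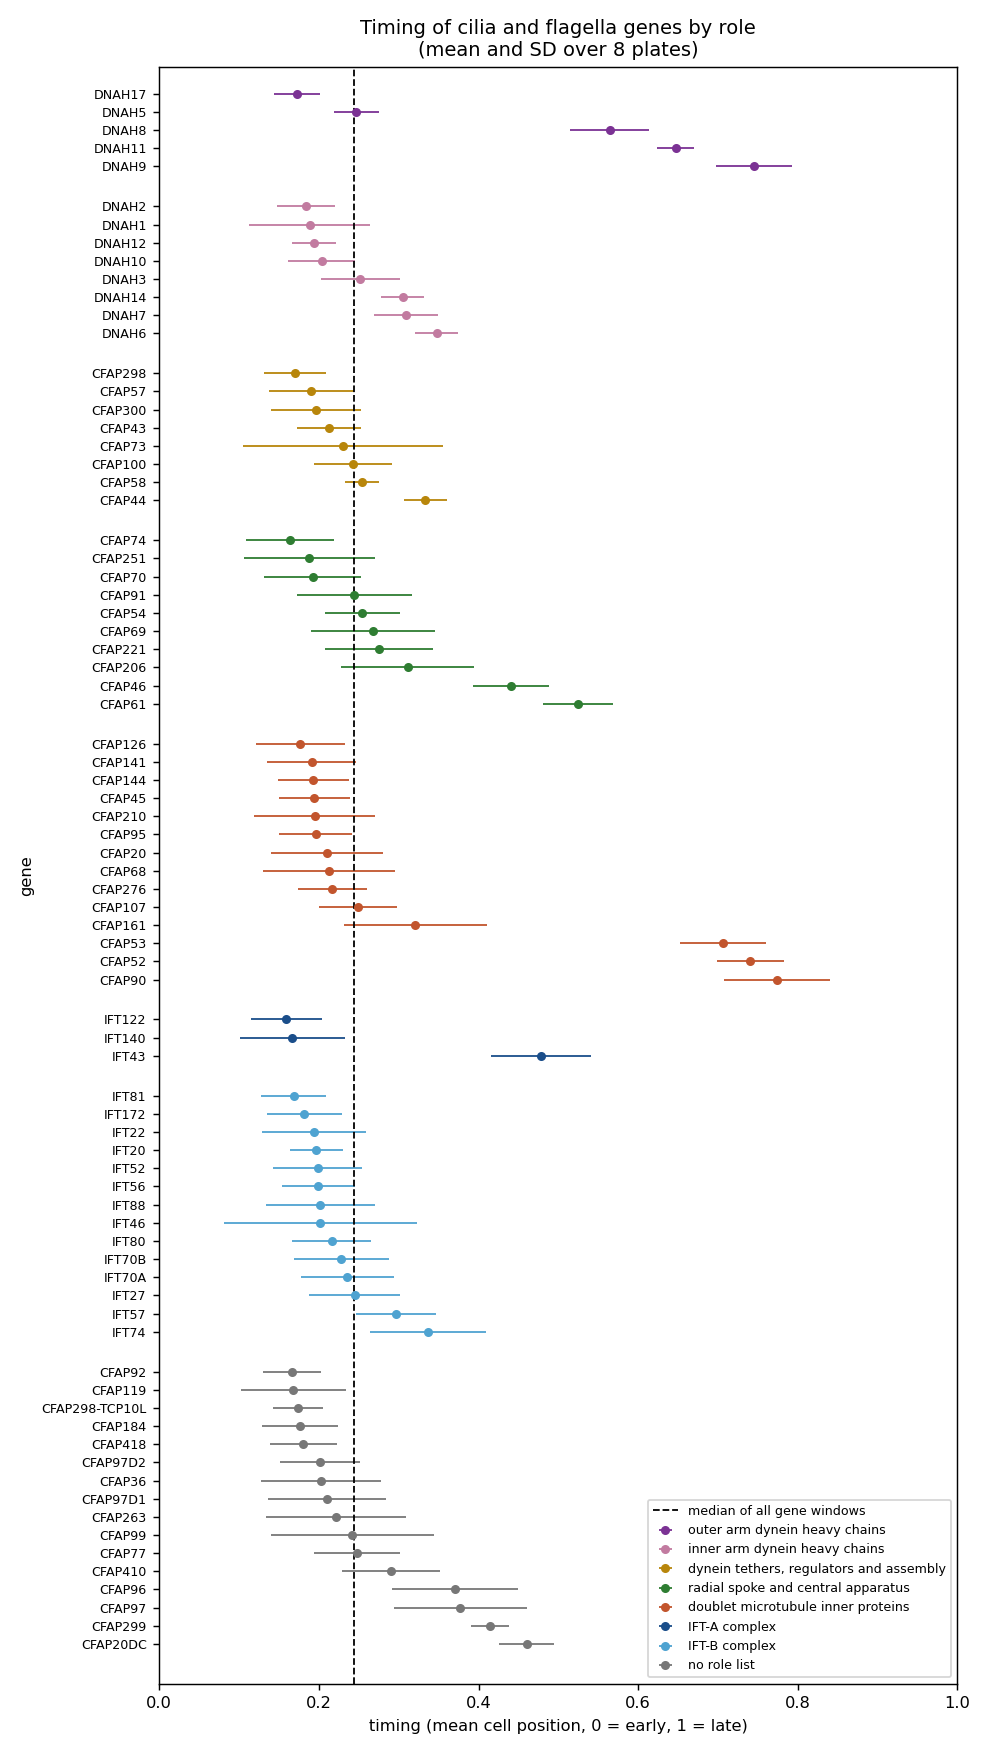
Timing of 78 members grouped by role. The horizontal axis is timing as mean cell rank from 0 (early) to 1 (late), points are means and bars SD over 8 plates, and the dashed line is the median of all gene windows at 0.244. Most members lie between 0.159 and 0.350, and 7 lie beyond 0.5, among them 3 outer arm dyneins and 3 proteins inside the doublets.

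The 5 earliest members were IFT122, CFAP74, CFAP92, IFT140 and CFAP119. IFT122 and IFT140 are core subunits of the IFT-A complex, which carries cargo back from the ciliary tip, and CFAP74 belongs to the central apparatus. IFT122 had a timing of 0.0872, 0.161 and 0.215 (lowest, median and highest plate; mean 0.159 ± 0.0447 SD), which was 0.0851 earlier than the median gene (adjusted p = 0.000748, limma, 8 of 8 plates). CFAP74 averaged 0.164 ± 0.0549, CFAP92 0.166 ± 0.0364, IFT140 0.167 ± 0.0659 and CFAP119 0.168 ± 0.0657 (SD, n = 8). These 5 differ by less than their spread over plates, so their order is not resolved.

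The 5 latest members were CFAP90, DNAH9, CFAP52, CFAP53 and DNAH11. CFAP52, CFAP53 and CFAP90 are proteins inside the doublet microtubules, CFAP53 being known for its part in setting left-right asymmetry, and DNAH9 and DNAH11 are heavy chains of the outer dynein arm, DNAH11 in its proximal form. CFAP90 had a timing of 0.655, 0.799 and 0.850 (lowest, median and highest plate), a mean of 0.774 ± 0.0668 (SD, n = 8). It was 0.530 later than the median gene (adjusted p = 8.84e-12, limma, 8 of 8 plates), and 78.9% of its molecules came from the latest tertile of cells, against 6.63% from the earliest. DNAH9 averaged 0.745 ± 0.0478, CFAP52 0.740 ± 0.0421, CFAP53 0.707 ± 0.0540 and DNAH11 0.647 ± 0.0233 (SD, n = 8). Every plate placed each of these 5 above every plate value of the 5 earliest.

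Timing spread widely within some of the role groups and less in others. Outer arm dynein heavy chains had a median of 0.564 over 5 genes, from DNAH17 at 0.173 ± 0.0290 to DNAH9, with DNAH5, the chain best known from primary ciliary dyskinesia, at 0.247 ± 0.0278 and DNAH8, a chain of sperm flagella, at 0.564 ± 0.0494. Inner arm heavy chains had a median of 0.228 over 8 genes, from DNAH2 at 0.184 ± 0.0362 to DNAH6 at 0.347 ± 0.0273. Of the outer arm chains 1 was called earlier and 3 later than the median gene, and of the inner arm chains 3 earlier and 3 later (limma, adjusted p under 0.05). Over all windows 28.5% were called earlier and 34.3% later, and role groups this small were not compared with that share.

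Among the IFT-A subunits IFT43, a small peripheral subunit, stood at 0.478 ± 0.0628 (SD, n = 8), later than IFT122 and IFT140 on each plate's range, which ended at 0.306 for IFT140 where that of IFT43 began at 0.360. The 14 timed IFT-B subunits ranged from IFT81 at 0.168 ± 0.0409 to IFT74 at 0.336 ± 0.0724, about as widely as the inner arm chains. IFT81 and IFT74 bind each other and form the tubulin-binding module of the complex. Of these 14, 5 were called earlier and 2 later, against 28.5% and 34.3% of all windows. Proteins inside the doublets had a median of 0.211, from CFAP126 at 0.177 ± 0.0555 to CFAP90, and CFAP20 was the seventh earliest of the 14.

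Radial spoke and central apparatus genes had a median of 0.261 over 10 timed genes, from CFAP74 to CFAP61 at 0.525 ± 0.0439, a protein at the base of the spokes. Genes for the tethers, regulators and assembly of dyneins had a median of 0.221 over 8 genes, from CFAP298, needed to assemble dynein arms, at 0.170 ± 0.0391 to CFAP44, part of the tether of an inner arm dynein, at 0.333 ± 0.0270 (SD, n = 8). In these groups 3 and 3, and 3 and 1, members were called earlier and later than the median gene, against 28.5% and 34.3% of all windows.

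The members called later were longer at the median and had fewer neighbours than those called earlier, with short genes among them as well: CFAP90, the latest, has a body of 20.8 kb. Bodies of the 21 members called later had a median length of 134 kb and 6 other genes within 500 kb, against 52.6 kb and 18 genes for the 28 called earlier. The rank correlation of timing with the number of genes within 500 kb was -0.607 over 78 members and -0.361 over all 16105 windows, and with body length 0.340 and 0.111. In the longest class, of at least 250 kb, 12 members had a median timing of 0.381, from 0.194 to 0.745, against 0.483 over 938 genes. Molecules per kb rose with timing in members (0.673) as in all genes (0.684), and late windows are therefore measured at greater depth. These correlations are across genes, which are not independent replicates.

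Long members often changed timing along their own body. In 24 members of at least 100 kb with a known strand the body was split at its midpoint, and the 3′ part was compared with the 5′ part on each plate, and 7 were called later and 6 earlier in the 3′ part (limma, adjusted p under 0.05), where 15.5% of 2508 long genes were called later and 14.3% earlier. Either call was made in 13 of the 24, or 54.2%, against 29.7% of long genes. The median size of the difference was 0.0605 in members and 0.0328 in all long genes. The members called are themselves long, up to 642 kb, and the parts of longer genes lie further apart.

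CFAP299, the longest member, was later in its 3′ part by 0.199, 0.243 and 0.297 (lowest, median and highest plate). Its 5′ part averaged 0.276 and its 3′ part 0.518 (difference 0.242 ± 0.0157 SE, adjusted p = 1.05e-07, limma, 8 of 8 plates). DNAH8 (0.240 ± 0.0205) and CFAP61 (0.211 ± 0.0239) showed differences of the same direction on 8 of 8 plates, with smaller ones in DNAH7, CFAP77, CFAP58 and DNAH5, of 0.0584 to 0.0702. The call of CFAP58 was lost without any one of 6 plates (adjusted p up to 0.103, limma). In the other direction, CFAP20DC, a gene named for a domain like CFAP20, had a 5′ part at 0.542 and a 3′ part at 0.358, and the difference lay between -0.203 and -0.160 on the 8 plates. It averaged -0.184 ± 0.0136 (SE; adjusted p = 3.44e-07, limma). DNAH6 (-0.184 ± 0.0168), DNAH14 (-0.154 ± 0.0168), DNAH11 (-0.117 ± 0.0173) and DNAH9 (-0.106 ± 0.0177) followed on 8 of 8 plates, and CFAP44 (-0.0539 ± 0.0155) on 7, its adjusted p being 0.0505 without plate 7.

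For 16 of these members, the parts could be compared between genotypes. The difference between the parts was nearer to 0 in KO than in WT cells in 14 of the 16, where the same held for 58.6% of 1735 long genes. It also held for 68 of the 84 long genes called between genotypes. Long genes at large had smaller differences between parts (median size 0.0328, against 0.0605 in members), and members were not compared with long genes of like difference. Only DNAH14 was called when the difference was tested between genotypes (limma, adjusted p under 0.05), where 2.77% of long genes were called above 0 and 2.07% below 0 (4.84% either way). In KO libraries its 3′ part differed from its 5′ part by -0.189, -0.0638 and 0.00354 (lowest, median, highest), against -0.326, -0.229 and -0.123 in WT libraries. The ranges overlapped, and the 5′ part averaged 0.311 in KO and 0.416 in WT while the 3′ part averaged 0.236 in KO and 0.203 in WT. The change of the difference was 0.138 ± 0.0334 (SE; adjusted p = 0.0177, limma, 8 of 8 plates). With the plate as a block its adjusted p was 0.0509, and without plate 1, 6, 7 or 8 it was 0.0525 to 0.0672 (limma).

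CFAP61 and DNAH6 came next and did not pass. In CFAP61 the parts differed by 0.0992 ± 0.0994 in KO and 0.247 ± 0.0889 in WT libraries (SD, n = 8; adjusted p = 0.0581, limma, 8 of 8 plates). In DNAH6 they differed by -0.114 ± 0.0663 in KO and -0.227 ± 0.0642 in WT libraries (SD, n = 8; adjusted p = 0.0596, limma, 7 of 8 plates). In tests on simulated data a change of 0.2 was recovered in 85.5% of genes and a change of 0.1 in 3%, so differences of the size seen in most members lie below what this comparison finds.

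**Figure D2:**
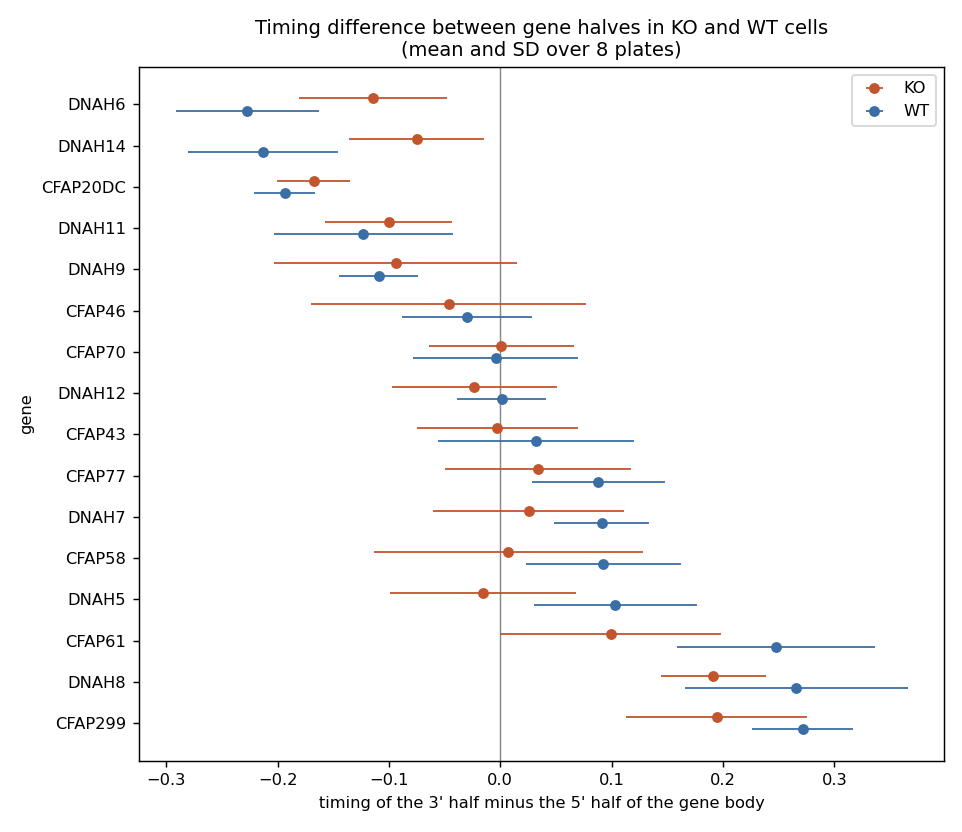
Timing of the 3′ part minus the 5′ part of the gene body in 16 long members, with KO above WT for each gene. Points are means and bars SD over 8 plates, and a value above 0 means a later 3′ part. KO points lie nearer to 0 than WT points in 14 of 16 genes, with the bars overlapping in most.

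The timing of the 45 members measured in every library was then compared between genotypes. Of the CFAP20-KO cells, 344 fell in the earliest tertile of cells and 402 in the latest, against 466 and 408 WT cells, and the part of this in the differences below was not tested. The median timing of a library was 0.303, 0.358 and 0.408 (lowest, median, highest) in KO and 0.279, 0.331 and 0.362 in WT, and each library was centred on its own median before the test. Counts of plates given with these timing differences are after centring. After centring, 2 members were later and 5 earlier in KO cells at an adjusted p under 0.05 (limma), where 5.47% of 6567 windows were called later and 13% earlier. Without centring the balance turned: 3 members were later and 2 earlier (limma), where 10.98% of windows were called later and 8.30% earlier, and the median member differed by 0.0272 against 0.0296 for all windows. After centring the median member differed by -0.00162, against 0.000774 for all windows. Called either way were 15.6% of members and 18.5% of windows, so the share of members called was close to that of genes at large.

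IFT57, a peripheral IFT-B subunit, and CFAP46, a protein of the central apparatus, were the members later in KO cells. The timing of IFT57 was 0.229, 0.413 and 0.575 (lowest, median, highest) in KO libraries, against 0.150, 0.245 and 0.315 in WT libraries. The genotypes overlapped between 0.229 and 0.315, and the highest KO library lay well above every WT library. The centred difference was 0.134 ± 0.0331 (SE; adjusted p = 0.00650, limma, later in KO on 8 of 8 plates after centring). Before centring the difference on plate 3 was -0.0162. CFAP46 had 0.385, 0.518 and 0.629 in KO and 0.276, 0.363 and 0.522 in WT libraries, a difference of 0.117 ± 0.0315 (SE; adjusted p = 0.0118, limma, 7 of 8 plates). The call of CFAP46 was lost without plate 2 (adjusted p = 0.0584, limma), which left 1 member called later, and under 3 other settings, with an adjusted p of up to 0.0829.

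The members earlier in KO cells were CFAP20DC, DNAH6, CFAP299, DNAH3 and DNAH14, 3 of them inner arm dynein heavy chains and all of them long genes, with bodies of 226 to 642 kb. Long bodies hold more molecules, 4177 in DNAH14 against a median of 464 over members, so long members enter this comparison more easily and are measured at greater depth. The part of length in these calls was not tested. Of the inner arm chains 6 could be tested, and of the 5 outer arm chains tested 0 were called, a difference between the arms that was not tested itself. CFAP20DC had 0.333, 0.405 and 0.495 (lowest, median, highest) in KO and 0.396, 0.498 and 0.537 in WT libraries, a centred difference of -0.113 ± 0.0230 (SE; adjusted p = 0.00135, limma, 8 of 8 plates). DNAH6 had 0.235, 0.307 and 0.354 in KO and 0.346, 0.367 and 0.466 in WT libraries, so that only the top of the KO range reached the bottom of the WT range. Its difference was -0.105 ± 0.0247 (SE; adjusted p = 0.00437, limma, 8 of 8 plates). CFAP299 had 0.329, 0.378 and 0.418 in KO and 0.393, 0.437 and 0.480 in WT libraries, a difference of -0.0876 ± 0.0214 (SE; adjusted p = 0.00605, limma, 8 of 8 plates). Without centring CFAP299 differed by -0.0587 and was not called (limma). The 2 members still called earlier without centring were CFAP20DC and DNAH6.

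DNAH3 and DNAH14 were nearer to the threshold. DNAH3 averaged 0.229 ± 0.0358 in KO and 0.278 ± 0.0743 in WT libraries (SD, n = 8), a centred difference of -0.0771 (adjusted p = 0.0446, limma, 8 of 8 plates after centring). Before centring DNAH3 was later in KO on plate 2 (by 0.0859) and on plate 7 (by 0.0445). DNAH14 averaged 0.279 ± 0.0440 in KO and 0.323 ± 0.0370 in WT libraries (SD, n = 8), a difference of -0.0732 (adjusted p = 0.0365, limma, 7 of 8 plates). With the plate as a block their adjusted p was 0.0528 and 0.0854, which left 3 members earlier and 2 later, where 12.5% of windows were called earlier and 4.9% later (17.4% either way). There were 3 members earlier as well without plate 6 and without plate 7, where 10.7% and 10.9% of windows were called earlier. DNAH3 lost its call without any plate but plate 2, and DNAH14 without plate 1, 2, 6, 7 or 8. With each cell counted once whatever its number of molecules, CFAP20DC (-0.0523, adjusted p = 0.0489) and DNAH6 (-0.0525, adjusted p = 0.0398) were the members called (limma), CFAP299 differed by -0.00719, CFAP46 by 0.0507 (adjusted p = 0.0829) and IFT57 could not be tested. Among members that did not pass, IFT74 was later in KO by 0.0954 on 8 of 8 plates (adjusted p = 0.0738, limma) and CFAP161 differed by -0.0946 on average, below 0 on 5 of 8 (adjusted p = 0.129, limma).

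**Figure D3:**
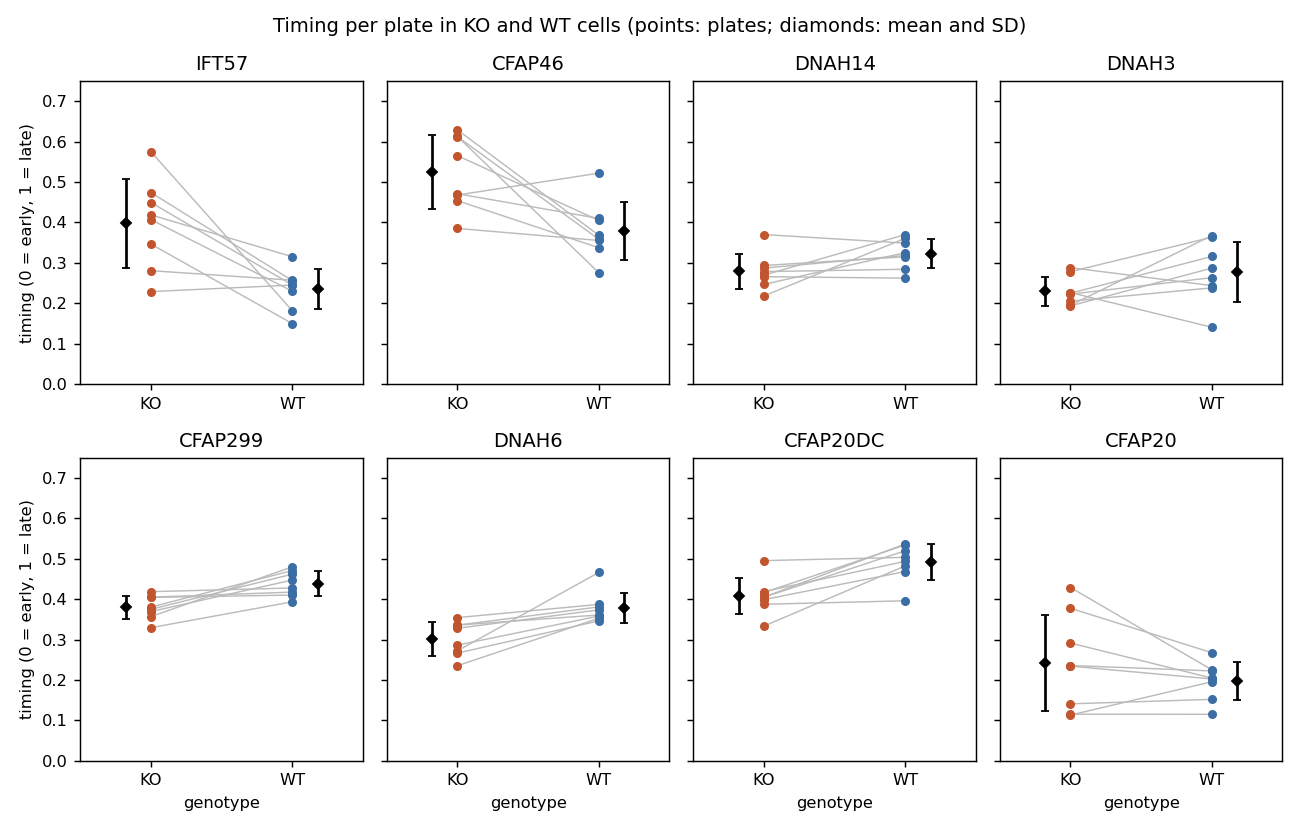
Timing per plate for the 7 members called between genotypes and for CFAP20, KO left of WT. Points are libraries, grey lines join the genotypes of a plate, and diamonds with bars give mean and SD over 8 plates; values are shown before centring. IFT57 and CFAP46 sit higher in KO, the other called members lower, and CFAP20 spreads from 0.113 to 0.429 in KO.

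The direction of the difference went with a gene's place in S phase over the genome as a whole. Among all windows compared, the earliest quintile had a median difference of 0.0201 and the latest quintile -0.0352, and 21.5% of the latest quintile were called earlier in KO against 0.0761% of the earliest. Both quintiles had 2.05% called later, and the quintile before the latest had the highest shares in both directions, 28.2% earlier and 10.7% later. The members were therefore also set, in each library, against the windows nearest to them in timing. On that scale 3 members were later and 6 earlier in KO cells, where 10.5% of windows were called later and 10.8% earlier (21.3% either way). IFT57 (0.144, adjusted p = 0.00286), CFAP46 (0.148, adjusted p = 0.00137) and IFT74 (0.110, adjusted p = 0.0365) were later (limma). The members earlier in KO cells were the 5 above and DNAH5 (-0.0714, adjusted p = 0.00789, limma). CFAP20DC differed by -0.0851 and DNAH6 by -0.0914 on this scale, against -0.113 and -0.105 before.

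Seen in steps of 100 kb along 1 Mb on either side, the differences had unlike extents. Around IFT57, KO was later than WT in 16 of 21 steps, with a median step of 0.0780, and 3 of the 10 neighbouring genes tested within 1 Mb were also called later and 1 earlier. Around CFAP20DC the difference was most negative at the gene itself: at the centre KO stood at 0.391 and WT at 0.530, a centred difference of -0.168, while the step 300 kb lower on the chromosome differed by 0.00882 and the step 300 kb higher by -0.0371. Neither of the 2 neighbours of CFAP20DC that could be tested was called. At CFAP299 the central step and the next 2 higher differed by -0.141 to -0.147 and the step after them by -0.00165, while a step 900 kb lower, outside the gene, differed by -0.176.

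CFAP20DC, DNAH6 and CFAP299 each spanned a slope of timing in WT cells. Around DNAH6, WT fell from 0.874 in late DNA 1 Mb below its centre to 0.167 in the step 400 kb above it, both outside the gene. Within the gene the WT timing averaged 0.482 in the 5′ part and 0.254 in the 3′ part. The most negative step, -0.172, lay on the slope. DNAH14 lay on a local rise in early DNA, where the WT profile peaked at 0.452 in the step 200 kb below its centre, where KO stood at 0.286, a centred difference of -0.195. CFAP46 lay on a rise in timing as well, and there KO stood at 0.520 and WT at 0.382 at the centre. Around CFAP46, KO was later in 16 of 20 steps, and 1 of 20 neighbours tested was called later.

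**Figure D4:**
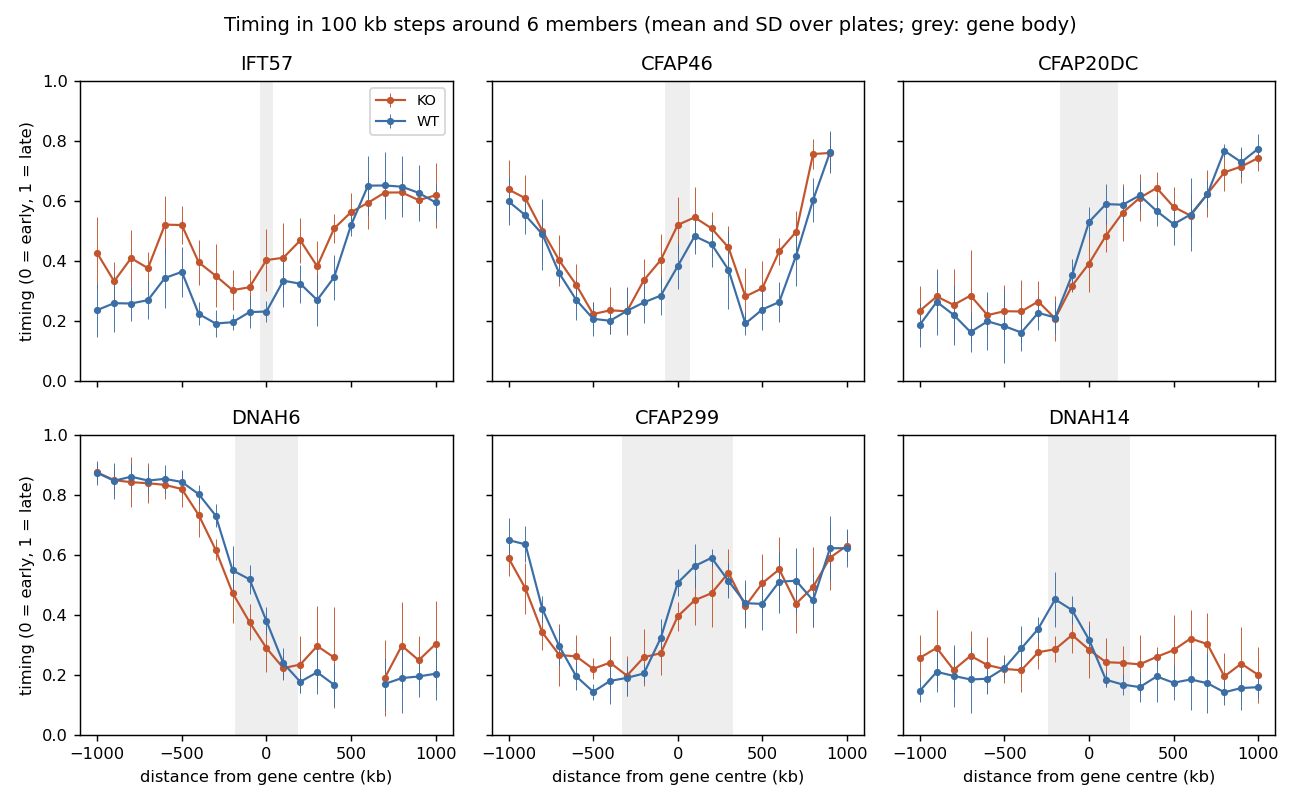
Timing in 100 kb steps by distance along the chromosome from the gene centre, for 6 members called between genotypes, before centring. Points and bars are mean and SD over plates for KO and WT, grey marks the gene body, and steps with too few molecules are left blank. KO lies above WT on both sides of IFT57 over most of the region. At the gene centre KO lies below WT in CFAP20DC, CFAP299, DNAH6 and DNAH14, while other steps within these bodies can lie the other way.

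The share of molecules in member genes differed little between genotypes. Of 79 members tested, 1 was lower in KO cells and 0 were higher at an adjusted p under 0.05 (limma voom), where 0.702% of 16533 windows were lower and 0.0847% higher (0.786% either way); at an unadjusted p under 0.05, 11 members (13.9%) were lower and 1 (1.27%) higher, against 8.34% and 2.76% of all windows. The median member had a log2 ratio of KO over WT of -0.16, against -0.09 for all windows, and 60 members lay below 0. Of the KO molecules 35.5% came from the earliest tertile of cells and 48.9% from the latest, against 41.0% and 45.0% of the WT molecules. Scaling by the library's total does not adjust for this mix, and its part in the ratios of early and late members was not tested. A log2 change of 1 was recovered in 48.5% of windows on simulated data and one of 2 in 98%, so smaller changes would often be missed.

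CFAP61 was the member called. KO libraries had 48.6, 75.8 and 104 CPM in CFAP61 (lowest, median, highest), against 111, 124 and 164 in WT libraries. Every KO library lay below every WT library. The log2 ratio was -0.77 ± 0.15 (SE; adjusted p = 0.000693, limma voom, 8 of 8 plates). The 5 Mb around the gene, the gene itself left out, had a log2 ratio of -0.60 ± 0.08 (SD, n = 8). With CFAP61 scaled by this flank its log2 ratio was -0.18 (adjusted p = 0.827, limma without voom). Fewer copies of the region and less labelling of it cannot be told apart in these counts.

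IFT56, an IFT-B subunit, lay in the other flank below a log2 ratio of -0.4. Its flank had -0.74 ± 0.16 (SD, n = 8), its own window -0.73 ± 0.30 (SE; adjusted p = 0.305, limma voom) and the window scaled by the flank 0.08. The flanks of the 81 members had a median log2 ratio of -0.04 and did not exceed 0.15. Scaled by flanks, no member was called (limma without voom), where 0.0242% of windows were called lower and 0.0181% higher (0.0423% either way). At an unadjusted p under 0.05, 6 members (7.59%) were lower and 1 (1.27%) higher, against 4.05% and 3.02% of all windows.

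Further members had large ratios that did not pass. CFAP65, a protein of the central apparatus known for its need in sperm flagella, had the lowest log2 ratio, -1.24 ± 0.39 (SE; adjusted p = 0.139, limma voom, 6 of 8 plates), from 69 KO and 225 WT molecules. IFT27, a small GTPase of IFT-B, followed with -0.85 ± 0.41 (adjusted p = 0.427, limma voom). At the other end CFAP90 had 15.99, 26.0 and 38.3 CPM (lowest, median, highest) in KO and 9.68, 16.5 and 23.9 in WT libraries, a log2 ratio of 0.68 ± 0.25 (SE; adjusted p = 0.225, limma voom, 7 of 8 plates). CFAP298-TCP10L (0.42 ± 0.31) and CFAP141 (0.39 ± 0.35) came next, neither with an adjusted p under 0.65 (limma voom).

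**Figure D5:**
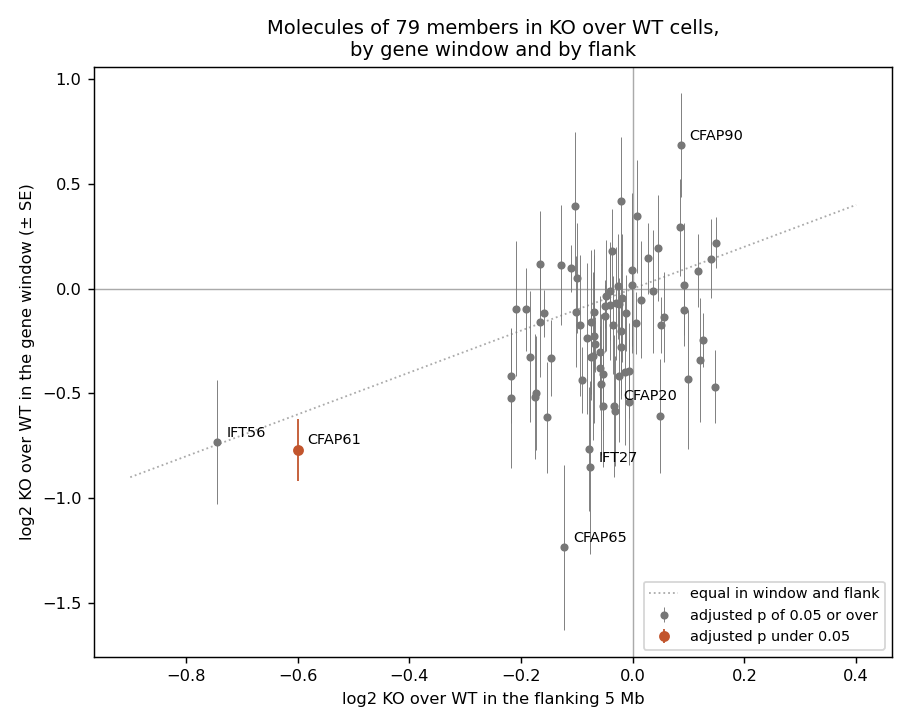
Log2 ratio of molecules in KO over WT for 79 members, in the gene window (vertical axis, with SE) and in the flanking 5 Mb (horizontal axis). The dotted line marks equal ratios in both. CFAP61, in colour, and IFT56 lie at flank values of -0.60 and -0.74 and close to the line, while the flanks of the other members lie between -0.4 and 0.15.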

How the data were processed

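The authors deposited, for each plate, a list of sequenced fragments with chromosome, position, signed length, cell barcode and genotype, per the file headers. The positions are on GRCh38, per the submitters' processing notes; an aligner and filters were not given in the sources used here. Genotype came from the files' own column, since the titles put both genotypes on each plate while the genotype label names CFAP20-KO for every plate. The members and lists were chosen with earlier results of these data known; the comparison at like timing, the parts of long genes, the 100 kb steps and the classes of neighbours were added after seeing the data.

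Autosomal fragments were summed here per window, plate and genotype, with Python 3.11.15, numpy 2.4.6, scipy 1.17.1 and pandas 2.3.3, and 3.26% to 4.62% of fragments per plate repeated another of the same cell. The rank of the 2430 cells along S phase is their place on axis 1 of a correspondence analysis over 5422 bins of 500 kb, which held 18.8% of the variation, its early end being the one that labels gene-rich DNA. Molecules were tested with limma 3.58.1 (voom) and timing with limma on per-plate values in R 4.3.3. Molecules scaled by flanks were tested with limma on log2 ratios to the flank, with a variance trend by molecules and without voom. Benjamini-Hochberg adjustment was over all windows, with a threshold of 0.05. Windows needed 10 molecules on each plate, or in each library between genotypes, and a mean of 10 per library for molecules. Scripts were tested on simulated data in which 200 windows were changed.

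Named genes were CFAP20, the 5 earliest and 5 latest members, every member called between genotypes, the 3 members with the greatest difference in each direction, and the ends of each role list; members named for their parts, IFT43, IFT74, DNAH5, IFT56, CFAP58 and CFAP77 among them, were chosen after their values were seen where that rule does not hold them. Plates hold both genotypes, so the plate pairs the libraries. In log2 CPM of molecules, the deviations of same-plate libraries correlated by 0.0314 on average (-0.0402 to 0.0987) and those of different plates by -0.00451. On 3 of 8 plates the closest match was the library of that plate. This correlation was not computed for timing, for which the fit with the plate as a block is given beside the main one. Alternatives changed the minimum of molecules per cell and window, the window, the bins, repeats, weights, centring, scaling, the plate block and each plate.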

Additional observations from a re-analysis of the deposited data

Results flagged for a closer look

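Of 87 sets of 8 plate values of named members, 7 held a plate far from the others by Dixon's test, which chance alone gives in about 1 of 20 sets. Timing of CFAP299 was 0.360 on plate 5 against 0.408 to 0.432 on the other plates, and that of DNAH11 was 0.593 on plate 1 against 0.644 to 0.667. The KO minus WT timing of IFT81 was 0.389 on plate 7 against -0.0871 to 0.113 on the other plates.

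The other 4 were log2 ratios of molecules in KO over WT. CFAP20DC had -1.25 on plate 1 against -0.24 to 0.61 elsewhere, and DNAH9 had -0.70 on plate 8 against 0.07 to 0.72. CFAP298 had 1.10 on plate 5 against -0.74 to 0.09, and CFAP74 had 0.72 on plate 4 against -1.23 to -0.32.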

How the results depend on the processing

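For timing against the median gene, 365 values of named members under an alternative kept direction and side of the threshold. Another 3, all of them of CFAP20, passed it newly and 2 no longer did. The difference between the members' and all genes' median timing was -0.0140 with a window minimum of 5, which timed 81 members and 17470 windows. It was -0.0402 with a minimum of 20, which timed 61 members and 11057 windows, and -0.0293 with at least 5000 molecules per cell. Its mean stayed below 0 in every setting run, on 6 of 8 plates with at least 300 molecules per cell and 7 of 8 over gene bodies, over windows of 100 kb, with a window minimum of 5 and in the order without member bins. Members later in KO numbered 0 of 23 with each cell counted once (all windows 2.52%) and 1 of 67 with a window minimum of 5 (all 1.62%). Without each plate in turn they numbered 1 to 2 (all 3.91% to 4.57%). Members earlier in KO numbered 8 of 37 over gene bodies only (all windows 13.7%), 10 of 72 over windows of 100 kb (all 14.0%), 2 of 23 with each cell counted once (all 8.58%), 2 of 45 with no centring, where 3 were later, 3 of 45 with the plate as a block and 3 to 5 without each plate in turn; the cause was not tested. Long members whose 3′ and 5′ parts differed between genotypes numbered 0 of 16 with the plate as a block (all long genes 1.96% above 0 and 1.84% below). With at least 20 molecules per window 2 of 11 were above and 2 below (all 6.00% and 5.09%). Without each plate in turn 0 to 2 were called in each direction, where 1.93% to 2.26% of long genes were above and 1.35% to 2.17% below. CFAP61, the member lower in KO, lost its call with scaling by its flank, which left 0. Beside DNAH3 and DNAH14, named above, the plate block changed no call of a named member. Between genotypes, depth limits what can be seen: on simulated windows a timing difference of 0.1 was found in 12% and one of 0.2 in 91.5%. The simulated spread was that of timing before centring, and 200 of 6567 windows were changed, so these shares may understate recovery in the centred test.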

Other observations

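Other genes of the cilium, listed by role under other names, spread over S phase as the members did. Of 71 such autosomal genes 65 were timed, with a median of 0.217, from DRC1 of the nexin-dynein regulatory complex at 0.165 to CCDC39, a ruler of axoneme length repeats, at 0.700. Against the median gene, 14 were called earlier and 19 later (limma, adjusted p under 0.05), where the share over all windows was 28.5% and 34.3%. The BBSome and its chaperonin-like partners had a median of 0.216 over 11 genes, transition zone genes 0.227 over 16, and dynein intermediate chains and assembly factors 0.211 over 14.

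Between genotypes 30 of them could be timed, and 3 were later and 4 earlier in KO cells, where 5.47% of windows were later and 13% earlier. SPEF2, a central apparatus protein of sperm flagella, was later by 0.118 ± 0.0287 (SE; adjusted p = 0.00564, limma, 7 of 8 plates). CEP290, of the transition zone, and TTC21B, an IFT-A subunit, were later by 0.124 (adjusted p = 0.0241, limma) and 0.105 (adjusted p = 0.0239, limma), each on 7 of 8 plates. BBS9, of the BBSome, differed by -0.0813 on 8 of 8 plates (adjusted p = 0.0163, limma). HYDIN, of the central apparatus, differed by -0.0938 (adjusted p = 0.0158, limma, 6 of 8 plates), and it has a near-identical copy elsewhere in the genome that could share its fragments. TCTN3 (-0.130, adjusted p = 0.0421, 6 of 8 plates) and DNAAF11 (-0.111, adjusted p = 0.0365, 7 of 8 plates) were the other two (limma). None of the 67 tested for molecules was called higher or lower (limma voom).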
